A study of Mus musculus with 6 samples.

Results

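EC2 is the smaller of 2 endothelial clusters in a single-cell survey of the mouse olfactory bulb. Its members are the cells that the deposited annotation names EC2, and there were 1124 of them among 51426 annotated cells in 38 clusters, or 2.19%. The larger endothelial cluster, EC1, held 2524 cells. Every library held EC2 cells. The control libraries gave 238 and 207 of them, the libraries from occluded bulbs 120 and 216, and those from trained mice 245 and 98.

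Brain endothelial cells line the vessels and form the blood-brain barrier. They are sealed to each other by tight junctions such as those built from claudin-5, they move nutrients and hormones through solute carriers, and they pump foreign compounds back into the blood with ABC transporters. Slco1c1, the gene given as the marker of this cluster, encodes a thyroid hormone carrier that is known from brain endothelium.

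The survey used C57BL/6NJ mice of 14 weeks of age in 3 conditions with 2 libraries each, and all of them were wild type. Control bulbs carry a control label that names no manipulation, and the study's text describes the controls as naive mice in places and as the open side of occluded mice in others. Naris occluded bulbs lay behind a nostril that had been plugged for 6 weeks, and trained mice had learned to tell odours apart for a water reward over 6 weeks, with water restriction. Library 1 of each condition was a pool of 3 males and library 2 a pool of 3 females, so the spread behind the p-values below includes the difference between sexes. In the EC2 cells, Xist, the RNA that coats the inactive X chromosome, gave 141, 240 and 73 UMIs in the female libraries and 1, 0 and 0 in the male libraries. The Y-linked Ddx3y gave 18, 15 and 17 UMIs in the male libraries and 0 in the female libraries. The dissected tissue held some olfactory epithelium, which adjoins the bulb.

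A UMI, or unique molecular identifier, marks 1 captured RNA molecule, and the values below are counts of UMIs or shares of them. EC2 cells were shallow, with a median of 750.5 UMIs and 477 genes per cell, and library medians from 706 to 870.5 UMIs. EC1 cells held a median of 1621 UMIs and 962 genes. Mitochondrially encoded RNA made up a median of 17.1% of the UMIs of an EC2 cell, with library medians from 14.001% to 19.1%, and 8.4% in EC1. Of the 38 clusters, 5 had a lower median UMI count than EC2 and 7 a higher mitochondrial share. The summed EC2 counts came to 91494 to 276414 UMIs per library. A barcode found in more than 1 library occurred for 57 EC2 cells, and in none of these did the other library's cell also belong to EC2.

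To compare EC2 with EC1, every cell was scaled to 500 UMIs, so that each cell weighs the same whatever its depth. This does not match the depth of the cells, and values from cells of 500 to 1000 UMIs are given further on. Levels are given as CPM, the usual scale for a gene's share of all UMIs, and as the mean over 6 libraries. The clusters were made from these same counts, so differences between clusters are described and not tested. Counts come from the 3′ end of transcripts and are therefore not divided by gene length. They say what share of a cell's RNA a gene takes, and a smaller share cannot be told apart from a larger share of something else.

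EC2 carried the endothelial programme at a lower level than EC1 in every library. The 15 endothelial markers summed to 8091 ± 1123 CPM in EC2 (SD, n = 6) and 16669 ± 1515 CPM in EC1, a log2 ratio of -1.05 ± 0.19. The EC2 sum was 8355 and 8454 CPM in control, 7747 and 9905 in occluded and 6548 and 7537 in trained libraries, so that the highest EC2 library lay below every EC1 library. EC1 was the highest of the 38 clusters for all 15 markers, and EC2 was among the 3 highest for 13 of them. The exceptions were Cldn5, which encodes claudin-5, and Esam, an adhesion molecule of endothelial junctions, for which EC2 had rank 4. The small cluster Mural1, named for the cells that wrap vessels, lay above EC2 for most of these markers, and for Cldn5 so did the olfactory ensheathing cluster OEC1, with 3749 CPM against 3348 in EC2. The markers do not go against the annotated name, and their level in EC2 was below that in EC1 and, for most, in Mural1.

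**Figure D1:**
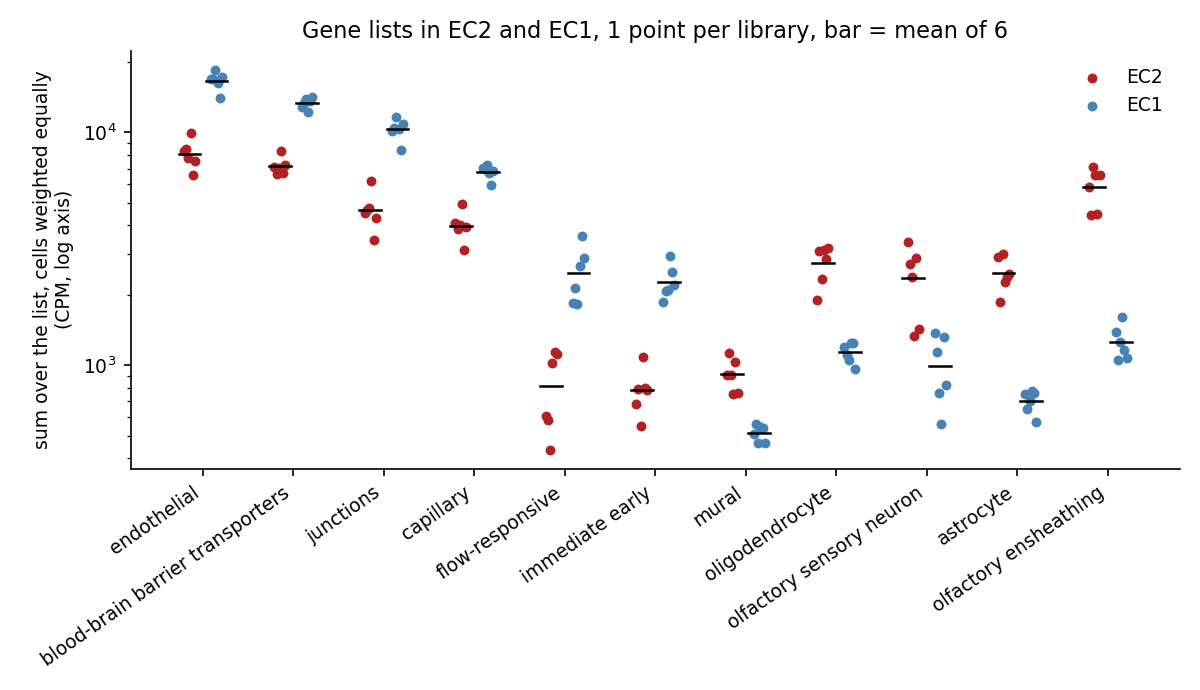
Summed level of marker lists in EC2 and EC1, in CPM with cells weighted equally, on a log scale, with 1 point per library and a bar at the mean of 6 libraries. The endothelial sum was 8091 CPM in EC2 and 16669 in EC1, while the olfactory ensheathing sum was 5820 CPM in EC2 and 1259 in EC1.

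Slco1c1 itself measured 684 and 452 CPM in control, 426 and 605 in occluded and 618 and 576 in trained libraries with cells weighted equally. The mean was 559.9 ± 101 CPM in EC2 and 999 ± 31.7 CPM in EC1, a log2 ratio of -0.85 ± 0.30. All EC2 libraries lay below all EC1 libraries. From the counts as summed per library, without scaling of cells, EC1 led the 38 clusters with 901 ± 34.2 CPM, EC2 followed with 519 ± 64.4, then Mural1 with 508 ± 91.4 and the neuronal cluster N11 with 316 ± 157, and the next cluster, Astro1, held 52.5 CPM. EC2 and Mural1 did not differ beyond their spread. A Slco1c1 UMI was seen in 412 EC2 cells, or 36.7%, and in 74.2% of EC1 cells. In OEC4, an ensheathing cluster with a median of 2116.5 UMIs per cell, the share was 1.0%. After thinning to 500 UMIs the shares were 23.4% in EC2, 37.6% in EC1 and 0.3% in OEC4, so the share in EC2 stood well above that in a cell type that should lack the gene.

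The 250 bases before the transcription start of Slco1c1 lie on the plus strand at chr6:141524104-141524353 of GRCm38.p6 and are shown because this gene marks the cluster. The sequence is from RefSeq and holds no match to the motif described with the immediate early genes below.

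Slco1c1: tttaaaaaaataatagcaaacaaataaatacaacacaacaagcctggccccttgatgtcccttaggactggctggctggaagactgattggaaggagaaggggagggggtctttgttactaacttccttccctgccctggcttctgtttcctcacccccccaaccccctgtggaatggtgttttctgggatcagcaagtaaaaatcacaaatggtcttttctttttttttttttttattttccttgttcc

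Among the genes that set EC2 apart from the mean of the other 37 clusters, most were general endothelial genes that EC1 held at a higher level. The 10 genes with the largest ratio were C130074G19Rik, Net1, Ctla2a, Prom1, 9430020K01Rik, Flt1, Pltp, Adgrf5, Slc38a5 and Adgrl4, and EC1 was the highest cluster for 7 of them. Flt1, a receptor for vascular endothelial growth factor, measured 1147 CPM in EC2 and 1828 in EC1. Pltp, which encodes a phospholipid transfer protein, measured 1014 CPM in EC2 and 1586 in EC1. EC2 was the highest cluster for C130074G19Rik, with 204 ± 44.8 CPM against 167 ± 11.6 in EC1, and for Net1, a guanine nucleotide exchange factor, with 192 ± 33.3 against 158 ± 44.1, and in both cases the EC2 and EC1 libraries overlapped. Of 1424 genes with at least 100 CPM in EC2, 11 had EC2 as their highest cluster.

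Across 1790 genes with at least 100 CPM in either cluster, EC2 was lower than EC1 in all 6 libraries for 609 genes and higher for 264. The median log2 ratio over all 1790 was -0.24. Without mitochondrially encoded genes in the scaling, 2054 genes had at least 100 CPM, 486 were lower and 396 higher, and the median was -0.075, as it was with cells of 500 to 1000 UMIs in both clusters. All 6 EC2 values lay above all 6 EC1 values for 8.83% of these genes and below them for 19.9%. Over all 18560 genes of the count table, many of which had few or no counts here, the shares were 2.3% and 3.45%. The clusters were defined by these differences, and the percentages are given as the background only. The lists below are counted over all their measured members, whatever their level, and a member with few counts tends to overlap.

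Most transport genes of the barrier were lower in EC2. Of the 22 transporters in the list, 14 lay below EC1 without overlap, none lay above and 8 overlapped, with a median log2 ratio of -0.87. Slco1a4, an organic anion carrier, measured 1691 CPM in EC2 and 3601 in EC1. Abcb1a, the efflux pump P-glycoprotein, measured 657 and 1006 CPM, and Slc2a1, the glucose transporter of the barrier, measured 625 and 1189. The exceptions among the more abundant transporters were small, with Slc38a3, a glutamine carrier, at 166 CPM in EC2 and 185 in EC1.

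Of 12 junction genes, 7 lay below EC1 without overlap and 5 overlapped, with a median log2 ratio of -0.83. Cldn5 measured 3292 and 3348 CPM in control, 3625 and 4662 in occluded and 2194 and 2968 in trained libraries, with a mean of 3348 ± 810 in EC2 and 7787 ± 1080 in EC1. Its log2 ratio was -1.24 ± 0.26, and the groups did not overlap. Ocln, which encodes occludin, measured 156 CPM in EC2 and 272 in EC1. A Cldn5 UMI was present in 79.0% of EC2 cells, 99.8% of EC1 cells and 22.2% of OEC3 cells, whose median was 817 UMIs. In the neuronal cluster N13, which should lack the gene and had a median of 1561.5 UMIs, the share was 7.5%. After thinning the shares were 67.2% in EC2, 95.1% in EC1, 15.5% in OEC3 and 2.8% in N13.

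The genes that mark segments of the vessel tree did not place EC2 in 1 segment. Of 8 capillary genes, 5 lay below EC1 without overlap and 3 overlapped, with Spock2 at 970 CPM in EC2 and 1601 in EC1 and Car4, a carbonic anhydrase, at 930 and 1947. Of 16 arterial genes, 4 lay below EC1 and 12 overlapped. Tm4sf1 was lower, at 219 CPM against 521, and Mgp, the matrix Gla protein, overlapped at 110 against 112. Gja5, a gap junction gene of arterial cells, was at 0 in all EC2 libraries and averaged 1.29 CPM in EC1. All 10 venous genes overlapped, the carrier Slc38a5 among them. Nr2f2, a transcription factor of veins, measured 98.8 CPM in EC2 and 56.4 in EC1.

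Among signalling genes of the endothelium, none lay above EC1 without overlap. Of the VEGF and angiopoietin genes 3 of 16 lay below EC1, as did 4 of 14 Wnt pathway genes and 5 of 10 genes of the BMP and TGF-beta pathway. Among members of at least 100 CPM in either cluster the counts were 3 of 5, 3 of 7 and 5 of 7, against 19.9% of all such genes. Of these, 3 Wnt genes and 1 BMP gene reached that level only in EC1. For each list sum, the highest EC2 library lay below the lowest EC1 library. The values were 2096 against 2668 CPM for VEGF, 1836 against 2162 for Wnt and 2471 against 4151 for BMP. Foxq1, a transcription factor of brain endothelium, measured 145 CPM in EC2 and 446 in EC1, and Ctnnb1, which encodes beta-catenin, measured 610 and 467. Id1 and Id3, which are targets of BMP signalling, measured 439 and 734 CPM in EC2 against 1587 and 1812 in EC1. All 12 basement membrane genes overlapped between the clusters, with Sparc, a matrix glycoprotein, at 991 CPM in EC2 and 938 in EC1. Genes of the interferon response and MHC class I lay below EC1 for 7 of 12, with Ifitm3 at 823 CPM in EC2 against 1722 in EC1.

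Of the 10 lowest ratios of EC2 to EC1, 4 belonged to immediate early genes, which cells switch on within minutes of a stimulus, namely Fos, Junb, Dusp1 and Btg2. All 10 genes were below 100 CPM in EC2 and were ranked only through their level in EC1. Of the 13 immediate early genes, 9 lay below EC1 without overlap and 4 overlapped, with a median log2 ratio of -1.83, and 4 of 5 flow-responsive genes lay below it. In another calculation, in which the median is taken within each library, the immediate early list gave -1.58 with all cells and -1.11 with cells of 500 to 1000 UMIs in both clusters. Fos, a subunit of the AP-1 transcription factor, measured 0 and 17.2 CPM in control, 19.8 and 80.0 in occluded and 6.49 and 30.5 in trained libraries. The EC1 libraries ranged from 144 to 297 CPM, so that every EC2 library lay below every EC1 library. Fos rests on few counts, since 27 EC2 cells, or 2.4%, held a Fos UMI, against 14.4% of EC1 cells. Klf2, a transcription factor induced by laminar flow, was far better measured and was lower in every library, at 530 ± 243 CPM in EC2 and 1750 ± 513 in EC1, a log2 ratio of -1.81 ± 0.41. Junb measured 62.9 CPM in EC2 and 268 in EC1, Dusp1, a MAP kinase phosphatase, 55.3 and 207, and Btg2, an antiproliferative gene, 40.4 and 142.

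Heat shock genes did not share this pattern. Of 10, Hspb1, a small heat shock protein, was lower in EC2 without overlap, at 339 CPM against 1008, and the other 9 overlapped, among them Hspa8 at 1044 and 980 CPM. The remaining genes with the lowest ratios were Edn1, Ecm1, Klf4, Gm694, 4430402I18Rik and Akap13, with log2 ratios from -2.14 to -1.88, and Klf4 is in the flow-responsive list.

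The promoters of Fos, Dusp1 and Btg2 are shown with the letters TGACGT, or the same letters on the other strand, in capitals. These letters belong to the element bound by the cAMP response factor CREB, and the genes were chosen because they are among the lowest in EC2 relative to EC1 and hold the motif. The windows are the 250 bases before the start in GRCm38.p6, at chr12:85473640-85473889 on the plus strand for Fos, chr17:26508473-26508722 on the minus strand for Dusp1 and chr1:134079156-134079405 on the minus strand for Btg2.
Fos: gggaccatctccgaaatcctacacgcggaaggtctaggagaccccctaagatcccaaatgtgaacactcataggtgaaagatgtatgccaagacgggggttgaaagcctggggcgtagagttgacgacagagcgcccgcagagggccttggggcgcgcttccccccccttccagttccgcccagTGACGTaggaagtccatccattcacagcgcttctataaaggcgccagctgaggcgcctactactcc
Dusp1: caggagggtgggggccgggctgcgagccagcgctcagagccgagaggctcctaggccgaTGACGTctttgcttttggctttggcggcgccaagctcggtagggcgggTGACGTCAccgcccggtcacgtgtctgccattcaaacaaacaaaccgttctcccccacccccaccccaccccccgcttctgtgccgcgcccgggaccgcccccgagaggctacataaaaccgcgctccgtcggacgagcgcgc
Btg2: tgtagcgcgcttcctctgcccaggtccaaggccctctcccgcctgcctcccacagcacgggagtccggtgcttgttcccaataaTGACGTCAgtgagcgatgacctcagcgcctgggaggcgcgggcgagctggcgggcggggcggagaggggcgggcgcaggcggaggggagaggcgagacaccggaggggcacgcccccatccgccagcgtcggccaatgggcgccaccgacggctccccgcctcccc
The motif began 66 bases before the start in Fos and 166 bases before it in Btg2, and Dusp1 had 2 separate stretches, the farther of which began 191 bases before the start. In Btg2 and in 1 stretch of Dusp1 the letters overlap with the same letters on the other strand, so that Btg2 holds 2 matches and Dusp1 3. Of the 11 immediate early genes with a RefSeq window, 4 held the motif, against 2125 of all 32851 windows, or 6.47%, and 1 of 14 endothelial markers. These are matches of letters in a fixed window and not measured binding.

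Mitochondrially encoded transcripts and genes of ensheathing cells and astrocytes were mostly higher in EC2. Of 13 mitochondrially encoded genes, 11 lay above EC1 without overlap, with a median log2 ratio of 0.95, and together they made up 175538 CPM in EC2 and 90295 in EC1. mt-Atp6, a subunit of ATP synthase and the most abundant EC2 transcript, measured 39948 ± 2823 CPM in EC2 and 21031 ± 1022 in EC1. Ribosomal protein genes overlapped for 80 of 87. Malat1, a long noncoding RNA that stays in the nucleus, was lower in EC2 with cells weighted equally, at 14682 ± 5542 CPM against 28982 in EC1, a log2 ratio of -1.06 ± 0.50. That value depended on how cells were weighted, since the ratio was -0.23 when the counts were summed without scaling each cell.

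The 9 genes with the highest ratios of EC2 to EC1 were Gsn, Gpr37l1, Gm3764, Frzb, Fxyd1, Ptprz1, Npy, Pla2g7 and Ncam1, with log2 ratios from 2.60 down to 2.32. With cells of 500 to 1000 UMIs in both clusters these ratios ran from 1.12 for Ptprz1 to 3.75 for Gm3764, in another order, and that of Npy was 1.33. Ptprz1 had its highest level in oligodendrocyte precursors, and the other 8 had theirs in an ensheathing or astrocyte cluster. Npy, neuropeptide Y, which marks ensheathing cells here, measured 1540 and 1127 CPM in control, 2180 and 1766 in occluded and 1429 and 1639 in trained libraries. Its mean was 1614 ± 352 CPM in EC2 and 306 ± 64.6 in EC1, and all EC2 libraries lay above all EC1 libraries. After thinning, 25.8% of EC2 cells and 11.9% of EC1 cells held an Npy UMI, and so did 12.6% of cells in the neuronal cluster N13.

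**Figure D2:**
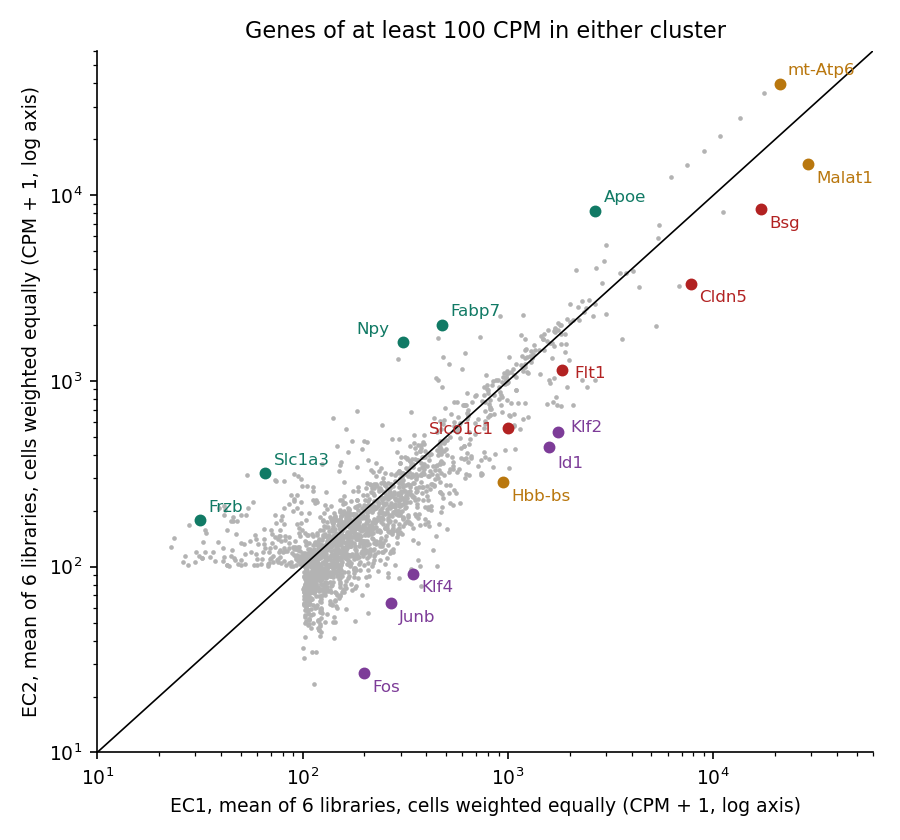
Level of each gene in EC1 (x axis) and EC2 (y axis), in CPM + 1 with cells weighted equally, on log scales, as the mean of 6 libraries for genes of at least 100 CPM in either cluster. Named points show Slco1c1 and other endothelial genes below the diagonal, such as Cldn5 at 3348 CPM in EC2 against 7787 in EC1, and Npy above it at 1614 against 306.

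By list, 6 of 7 ensheathing genes and 7 of 10 astrocyte genes lay above EC1 without overlap, with median log2 ratios of 2.17 and 1.75. The ensheathing sum was 5820 ± 1134 CPM in EC2, with libraries from 4416 to 7096, against 1259 in EC1, and the astrocyte sum was 2488 CPM against 701. Of 8 oligodendrocyte genes 2 were higher without overlap and of 10 neuronal genes 4, with Mbp, myelin basic protein, at 2233 CPM in EC2 and 914 in EC1. Of 6 olfactory sensory neuron genes, 1 was higher without overlap and the list summed to 2361 CPM against 998. For pericytes and smooth muscle, 1 of 12 genes was higher, Vtn at 316 CPM against 89.4, and the list summed to 917 CPM against 513. A Vtn UMI was seen in 91.0% of cells of the mural cluster Mural2 and in 90.6% of OEC4 cells. The OEC4 cells were deeper, and after thinning the shares were 87.4% in Mural2, 58.3% in OEC4 and 39.5% in OEC3. Vtn was thus seen more often in Mural2 cells, but a Vtn UMI is not specific to mural cells here. Mesenchymal genes summed to 49 CPM in EC2 and macrophage genes to 19, with Lum, Cd163, F13a1 and Ms4a7 at 0. Microglial genes summed to 416 CPM in EC2 and 194 in EC1, and hemoglobin genes to 486 against 1889, with overlapping libraries.

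The ensheathing and astrocyte sums differed with the depth of the EC2 cells. The 135 EC2 cells with more than 1500 UMIs, 12.01% of the cluster and from 7.14% to 20.0% of it per library, held 36.2% of its UMIs. In these cells the ensheathing list summed to 20134 CPM, the astrocyte list to 6972 and the endothelial list to 6333. In the other 989 cells the sums were 3631, 1842 and 8388 CPM. The lists of oligodendrocytes, neurons and olfactory sensory neurons went the other way, at 974, 595 and 1038 CPM in the deeper and 2970, 1338 and 2683 CPM in the shallower cells. The ensheathing list took more than 1% of the UMIs in 81 of the deeper cells, or 60.0%, in 72 of the shallower cells, or 7.3%, and in 35 EC1 cells, or 1.4%.

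The mitochondrial and Malat1 shares moved with depth too. From the 136 cells of 500 to 600 UMIs to the 83 cells above 2500 UMIs, the mitochondrial share of UMIs went from 19.7% to 9.1% and that of Malat1 from 0.71% to 6.4%. The endothelial sum went from 8595 to 6537 CPM and the ensheathing sum from 2849 to 21828 CPM. In EC1 over the same bands the endothelial sum went from 25072 to 14348 CPM, with 12 cells in the lowest band, and the ensheathing sum stayed between 1054 and 1870 CPM. The endothelial sum of EC2 was thus lower than that of EC1 in every band of depth, and the rise of ensheathing genes with depth appeared in EC2.

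**Figure D3:**
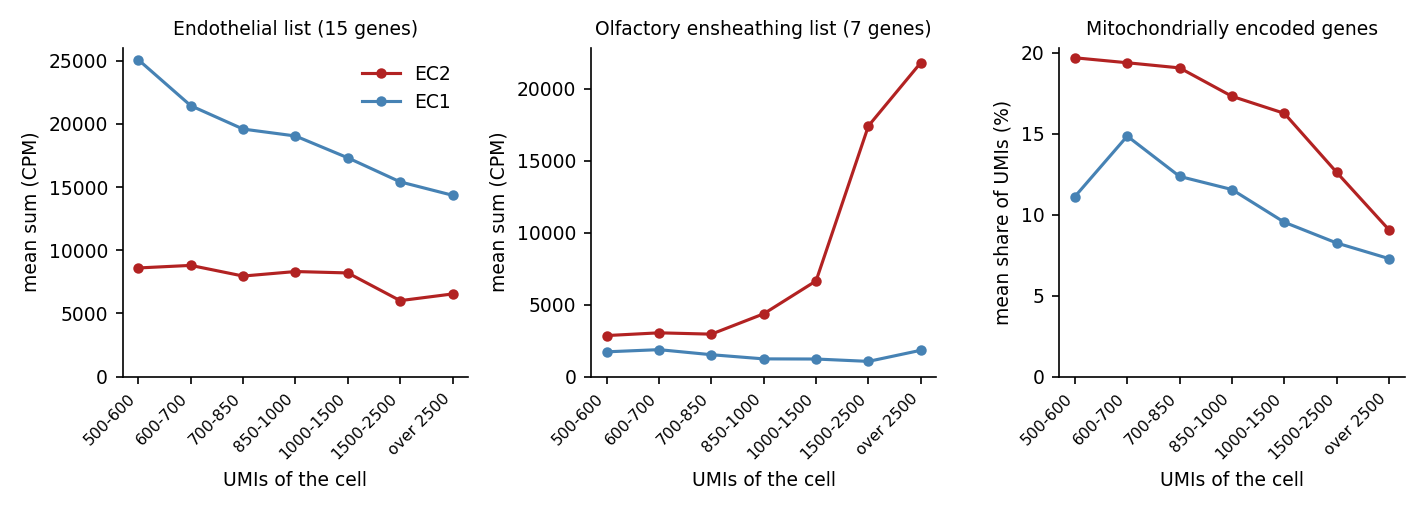
Summed level of the endothelial and ensheathing lists (CPM) and share of mitochondrially encoded UMIs (percent), by UMI count of the cell in EC2 and EC1, as means over the cells of all libraries in 7 bands of depth. The ensheathing sum in EC2 went from 2849 CPM in the lowest band to 21828 in the highest, and the endothelial sum stayed below that of EC1 in each band.

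Leaving out the deeper cells left the endothelial comparison much as it was and reduced the ensheathing and astrocyte ratios. With cells of up to 1500 UMIs in both clusters, the median log2 ratio over the endothelial list was -1.05, against -0.96 with all cells in the same calculation. The median over the ensheathing list went from 2.24 to 1.59 and that over the astrocyte list from 1.72 to 1.18. With cells of 500 to 1000 UMIs in both clusters, which brings their depths close, the ratio was 1.27 for the ensheathing list, 0.94 for the astrocyte list, -1.22 for the endothelial list and -1.17 for the transporters, the last against -0.86 with all cells. Other settings raised the ratios. With counts summed without scaling each cell they were 2.85 for the ensheathing and 2.47 for the astrocyte list, and with only the cells of at least 800 UMIs 3.0002 and 2.31.

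The levels of marker lists of other cell types in EC2, with cells weighted equally, were set beside a reference. The reference was the level in the counts summed over all annotated cells of each library. Deeper cells weigh more in those sums, so the measures are unlike and shallow cell types count for less in the reference. RNA that floats free in the suspension was not measured here. In EC2 cells of up to 1500 UMIs the olfactory sensory neuron list stood at 161% of the reference, oligodendrocyte genes at 131%, mural genes at 91.1%, neuronal genes at 58.5%, astrocyte genes at 48.5% and ensheathing genes at 26.7%. In the deeper EC2 cells, astrocyte genes stood at 188% and ensheathing genes at 141%. The endothelial list stood at 509% in the shallower cells, 387% in the deeper cells and 1020% in EC1. Of the 1124 EC2 cells, 29 held no UMI of an endothelial marker, 2.6%, and no EC1 cell lacked one. The part played by free RNA, or by droplets with more than 1 cell, in the ensheathing and astrocyte levels was not tested.

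The share of EC2 cells was then compared between conditions. EC2 made up 2.38% and 2.68% of annotated cells in control, 1.65% and 2.36% in occluded and 2.32% and 1.46% in trained libraries. For the first control library the 95% binomial interval (exact, counting error only) ran from 2.09% to 2.70%. The second control library lay within that interval, while the libraries of each other condition lay farther apart, and the lower control value lay close to the higher occluded value. By edgeR's quasi-likelihood test over the 38 clusters the log2 difference was -0.33 (SE 0.29, adjusted p = 0.586) for occluded against control, -0.41 (SE 0.29, adjusted p = 0.643) for trained against control and -0.08 (SE 0.29, adjusted p = 0.913) for trained against occluded. None of the 3 differences passed for EC2.

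Among endothelial cells alone, EC2 made up 34.1% and 32.1% in control, 28.8% and 29.8% in occluded and 33.2% and 23.0% in trained libraries. Both occluded libraries lay below both control libraries, with a mean difference of -3.78 percentage points (exact permutation test, two-sided, p = 0.333, n = 2 libraries each, the smallest p this design allows). The difference was -5.07 points for trained against control (exact permutation p = 0.667, n = 2), or 0.033 points without the second trained library, and -1.29 points for trained against occluded (exact permutation p = 1, n = 2). The last reached 3.81 points with 1 library left out and was 4.01 points with cells of up to 1500 UMIs. Each of the 3 comparisons shares its libraries with the others.

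**Figure D4:**
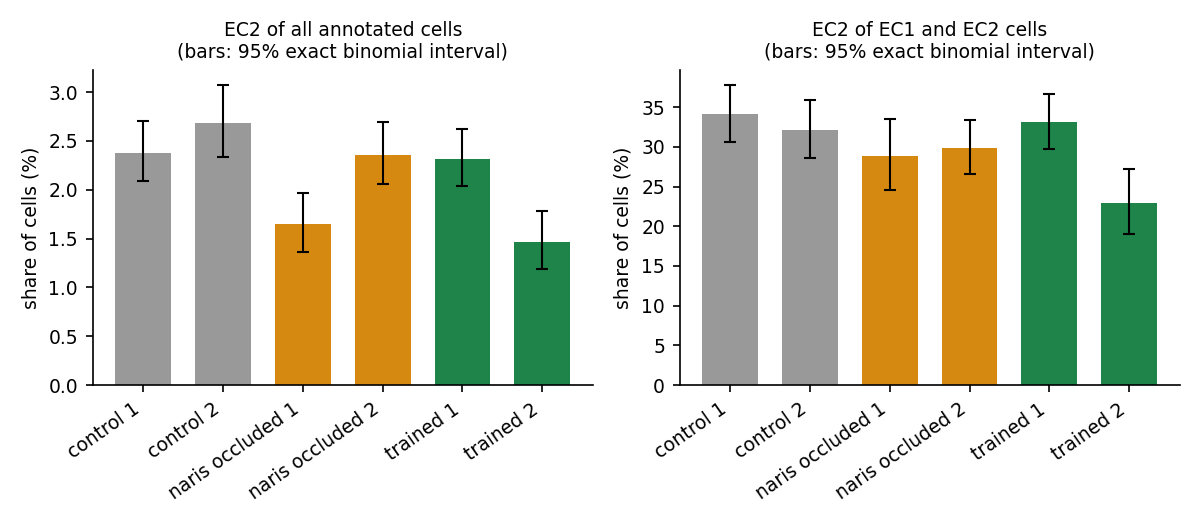
Share of EC2 among annotated cells and among endothelial cells (EC1 and EC2) in each of the 6 libraries, in percent (bars), with exact 95% binomial intervals that cover counting error only. Shares of annotated cells ran from 1.46% to 2.68%, and shares of endothelial cells from 23.0% to 34.1%.

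Gene levels in EC2 were compared between conditions from the counts summed over the EC2 cells of each library, and the 3 comparisons share libraries. In edgeR the spread of a gene rested mostly on that of all genes, with 48.2 prior against 3 residual degrees of freedom. A low p-value thus does not show that the libraries of a condition agreed. Of 4085 genes tested, edgeR called 10 for occluded against control (0.245%), 2 for trained against control (0.049%) and 28 for trained against occluded (0.685%). At an unadjusted p under 0.05 the numbers were 261, 235 and 458, and DESeq2 called 0, 0 and 1. In EC1, with 8665 genes tested, edgeR called 2 (0.0231%), 29 (0.335%) and 35 (0.404%).

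Slco1c1 was not called in any comparison. Its normalized level was 687 and 533 CPM in control, 513 and 553 in occluded and 693 and 605 in trained libraries. The log2 change was -0.20 (SE 0.21, edgeR adjusted p = 0.921) for occluded against control, 0.10 (SE 0.21, edgeR adjusted p = 0.992) for trained against control and 0.30 (SE 0.21, edgeR adjusted p = 0.627) for trained against occluded. The libraries of the 3 conditions overlapped or lay close together.

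With naris occlusion, S100a5 was the 1 gene that fell. It encodes a calcium-binding protein of olfactory sensory neurons whose level depends on odour input. Its level was 2061 and 1555 CPM in control, 767 and 259 in occluded and 1574 and 706 in trained libraries, a log2 change of -1.86 (SE 0.26, edgeR adjusted p = 4.41e-06) for occluded against control. All control values lay above the occluded values. The same gene fell in EC1, by 1.61 on the log2 scale (SE 0.24, edgeR adjusted p = 0.00891), and its difference over all annotated cells summed was -1.76 (edgeR adjusted p = 0.580). S100a5 was the 1 call of the 10 that was kept with each of the 6 libraries left out in turn, and its log2 change was then -1.24 without the second occluded library and -2.80 without the first. It was not kept with edgeR's robust estimate of the spread (adjusted p = 0.817), by DESeq2 (adjusted p = 0.999605) or by edgeR with EC1 and EC2 summed (adjusted p = 0.109).

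The 9 genes that rose with occlusion were the hemoglobin genes Hbb-bs, Hba-a1 and Hba-a2, the immediate early gene Fos, the ensheathing genes Fabp7 and Npy, the myeloid genes Tyrobp and C1qa, and Edil3, an integrin ligand. Hemoglobin belongs to red blood cells, and the rise came from 1 library. Hbb-bs gave 41 and 13 UMIs in control, 28 and 452 in occluded and 9 and 6 in trained libraries, and without the second occluded library its log2 change of 3.29 became 0.57 (edgeR adjusted p = 0.890). Hba-a1 and Hba-a2 are near-identical copies, so their separate counts are uncertain.

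Fos gave 0 and 5 UMIs in control, 12 and 31 in occluded and 2 and 2 in trained libraries. Its log2 change was 3.25 (SE 0.64, edgeR adjusted p = 0.00455), against 0.51 (edgeR adjusted p = 0.847) in EC1. Both occluded libraries lay above the others, on small counts, and the call was lost without the second occluded library (log2 change 2.64, edgeR adjusted p = 0.804). It was also lost without the first control library and by DESeq2 (adjusted p = 0.999605), and with cells of up to 1500 UMIs Fos did not pass the filter on low counts and was not tested. With cells weighted equally, the first occluded library, at 19.8 CPM, lay below the second trained library, at 30.5.

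Fabp7, a fatty acid binding protein of glia, measured 3426 and 2868 CPM in control, 5000 and 5703 in occluded and 2391 and 3847 in trained libraries. The log2 change with occlusion was 0.76 (SE 0.16, edgeR adjusted p = 0.00971), and 0.71 (SE 0.15, edgeR adjusted p = 0.0120) for Npy. The Fabp7 call was lost without the second control or the second occluded library, and the Npy call without either control library or the first occluded library, where its log2 change was 0.46 (edgeR adjusted p = 0.551). The deeper EC2 cells described above made up 14.3% and 9.18% of EC2 in control, 20.0% and 14.4% in occluded and 8.16% and 7.14% in trained libraries, and their part in these changes was not tested beyond leaving them out. With cells of up to 1500 UMIs the log2 change was 0.07 for Fabp7 and -0.090 for Npy (edgeR adjusted p = 0.991 for each).

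Tyrobp and C1qa, a signalling adaptor and a complement component that microglia make, rose by log2 changes of 1.89 (SE 0.41, edgeR adjusted p = 0.0140) and 1.43 (SE 0.33, edgeR adjusted p = 0.0308). C1qa gave 20 and 15 UMIs in control, 46 and 32 in occluded and 16 and 5 in trained libraries, and its change in EC1 was 0.60 (edgeR adjusted p = 0.901). Both occluded values of C1qa lay above the others. Tyrobp measured 41.4 and 33.0 CPM in control, 153 and 132 in occluded and 64.9 and 139 in trained libraries. Its second trained library thus lay above its second occluded library. The calls of both genes were kept with cells of up to 1500 UMIs but lost without either control library or the first occluded library. Of 3 microglial markers tested, C1qa was the 1 called, against 0.245% of all genes. The summed microglial list in EC2 cells of up to 1500 UMIs was 248 and 379 CPM in control, 791 and 615 in occluded and 379 and 253 in trained libraries, and its part in these calls was not tested.

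Among genes of endothelial function, no call was made with occlusion: 0 of 15 endothelial markers, 0 of 20 barrier transporters, 0 of 9 junction genes and 0 of 8 capillary genes passed, against 0.245% of all genes. At an unadjusted p under 0.05 these lists held 1, 2, 0 and 0 genes. The lowest p belonged to Slc38a5 with a log2 difference of -0.98 (edgeR adjusted p = 0.404) among transporters and to Kdr, a VEGF receptor, with -0.84 (edgeR adjusted p = 0.404) among endothelial markers. The median log2 difference was -0.20 over the 15 endothelial markers, 0.01 over the 20 transporters and -0.01 over all 4085 genes.

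Training against control gave 2 calls, both higher. Hspa8, a constitutive chaperone, measured 790 and 967 CPM in control, 667 and 690 in occluded and 2083 and 1375 in trained libraries. Its log2 change against control was 1.01 (SE 0.19, edgeR adjusted p = 0.00722) and in EC1 it was 1.11 (edgeR adjusted p = 0.0156). Tsc22d3, a target of glucocorticoid signalling, measured 124 and 132 CPM in control, 133 and 176 in occluded and 492 and 164 in trained libraries, a log2 change of 1.52 (SE 0.30, edgeR adjusted p = 0.0145), and in EC1 it was 1.91 (edgeR adjusted p = 2.45e-05). For both genes the trained libraries lay above the control libraries. The first trained library decided both calls, since without it the log2 change was 0.63 (edgeR adjusted p = 0.795) for Hspa8 and 0.34 (edgeR adjusted p = 0.933) for Tsc22d3. Both were also lost without the first control library, and Tsc22d3 without the second. With the sex of the mice as a block Tsc22d3 did not pass (edgeR adjusted p = 0.0533).

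The next 3 genes by p, Klf2, Apbb2 and Ifitm3, did not pass. Klf2 measured 476 and 368 CPM in control, 440 and 764 in occluded and 898 and 795 in trained libraries, a log2 difference of 1.01 (SE 0.22, edgeR adjusted p = 0.0541), and 0.68 (edgeR adjusted p = 0.0819) in EC1. It passed in 7 of 16 other settings, with adjusted p from 0.00119 to 0.99987 over all 16, among them cells of up to 1500 UMIs (log2 change 1.13, edgeR adjusted p = 0.00277), the robust estimate of the spread, and the fits without either occluded library or the second trained library. Apbb2 had a log2 difference of -2.75 on at most 19 UMIs per library and Ifitm3, an interferon-induced membrane protein, one of -0.76 (edgeR adjusted p = 0.230). Ifitm3 passed in 3 of 16 other settings, the robust estimate (edgeR adjusted p = 0.0152) and the fits without the first or the second occluded library (edgeR adjusted p = 0.0366 and 0.0311), and Apbb2 in 0 of 15. By list, 1 of 6 heat shock genes was called, Hspa8, and 0 of 15 endothelial markers, 0 of 20 transporters, 0 of 9 junction genes and 0 of 5 flow-responsive genes, against 0.049% of all genes. At an unadjusted p under 0.05 the last 4 lists held 3, 5, 1 and 3 genes, against 235 of 4085 genes in all. The interferon and MHC class I list held 4 of 8 genes at that level and 0 calls, with a median log2 difference of -0.59. For trained against occluded it held 6 of 8 and 0 calls, with a median of -0.64, against 458 of 4085 genes in all.

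Trained against occluded gave 10 genes higher and 18 lower. Cldn5 was the 1 endothelial marker called of 15, against 0.685% of all genes, and it was lower in trained libraries. Its level was 3633 and 3775 CPM in control, 4060 and 5047 in occluded and 2500 and 3468 in trained libraries, a log2 change of -0.63 (SE 0.16, edgeR adjusted p = 0.0385). In EC1 the change was -0.24 (edgeR adjusted p = 0.396). Car4, a carbonic anhydrase on the capillary surface, was the 1 capillary gene called of 8, with 1030 and 1170 CPM in control, 1033 and 1248 in occluded and 590 and 795 in trained libraries, and its log2 change was -0.76 (SE 0.20, edgeR adjusted p = 0.0447). In both genes the trained values were the lowest of the 6. Both calls were lost without the first or second control library, the second occluded library or the first trained library, and with the library number, which stands for the sex of the mice, as a block. That block kept 16 of the 28 calls. With the deeper EC2 cells left out, the Car4 call was kept and the Cldn5 call was not. The ensheathing cluster OEC1 also held Cldn5, at 3749 CPM, and the part of ensheathing RNA in the Cldn5 change was not tested.

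Fos, an immediate early gene that EC1 held at a higher level than EC2, was lower in trained than in occluded libraries. Genes of other cells were again among the calls. The hemoglobin genes, C1qa and the ensheathing genes Fabp7, Npy and Apod were lower in trained than in occluded libraries. S100a5 was higher, by a log2 change of 1.26 (SE 0.27, edgeR adjusted p = 0.00721), although the second trained library lay below the first occluded library. That call was lost without the first trained library (log2 change 0.49, edgeR adjusted p = 0.709) and without the second occluded library (0.65, edgeR adjusted p = 0.234). For Fabp7 the change was -0.80 (edgeR adjusted p = 0.00439) and for Npy -0.63 (edgeR adjusted p = 0.0332), and with cells of up to 1500 UMIs these became 0.32 and 0.54, neither of which passed. The Fos, Npy and Apod calls were lost with the library number as a block. Without the first trained library the Fabp7 change was -0.49 (edgeR adjusted p = 0.286), and without the first occluded library the Npy change was -0.39 (edgeR adjusted p = 0.425). The other genes lower in trained among the 10 with the lowest p were Rbm4b, an RNA-binding protein, Malat1, Fxyd1, a regulator of the sodium pump, and Aspa, aspartoacylase of oligodendrocytes.

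Malat1 took 33081 and 29305 CPM in control, 40303 and 41414 in occluded and 16448 and 29852 in trained libraries, a log2 change of -0.82 (SE 0.15, edgeR adjusted p = 7.26e-04). Both trained values lay below both occluded values. The call was kept with each library left out in turn, with log2 changes from -1.30 to -0.47, the smallest without the first trained library, but not by DESeq2 (adjusted p = 0.999) or with edgeR's robust estimate of the spread (adjusted p = 0.220). The mean share of Malat1 per cell was 5.88% of UMIs in the deeper EC2 cells and 0.86% in the others, and the deeper cells were 20.0% and 14.4% of EC2 in occluded and 8.16% and 7.14% in trained libraries. In cells of up to 1500 UMIs its mean share was 0.745% and 1.76% in occluded and 0.488% and 0.708% in trained libraries, so that the first occluded library lay close to the second trained library. With counts summed over those cells the log2 change was -0.99 (edgeR adjusted p = 6.84e-05).

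The other genes called higher in trained than in occluded libraries were Hspa8, Pcp4, Ndrg4, Ncdn, Sema3c, Sec14l1, mt-Co1, Tsc22d3 and Trib2. For Tsc22d3 the second trained library, at 164 CPM, lay below the second occluded library, at 176. Its log2 change was 0.048 without the first trained library. The mt-Co1 call was lost in 10 of 15 other settings and the Trib2 call in 7 of 15. All of mt-Co1, Tsc22d3 and Trib2 were lost with the library number as a block. Pcp4, Ndrg4 and Ncdn are best known from neurons. Pcp4, a calmodulin regulator, measured 960 and 978 CPM in control, 733 and 519 in occluded and 1639 and 870 in trained libraries, a log2 change of 1.06 (SE 0.21, edgeR adjusted p = 0.00348). Without the first trained library it was 0.47 (edgeR adjusted p = 0.709), and the call was also lost with EC1 and EC2 summed, with cells of up to 1500 UMIs and by DESeq2. Hspa8 changed by 1.37 (SE 0.19, edgeR adjusted p = 6.37e-06) and was the 1 gene that DESeq2 called. Rbm4b, lower in trained libraries on 5 and 1 UMIs there, was not kept with cells of up to 1500 UMIs (log2 change -2.66, edgeR adjusted p = 0.160). Of all 28 calls, 3 were kept with every library left out in turn, Hspa8, Rbm4b and Malat1, and 6 were kept with cells of up to 1500 UMIs.

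**Figure D5:**
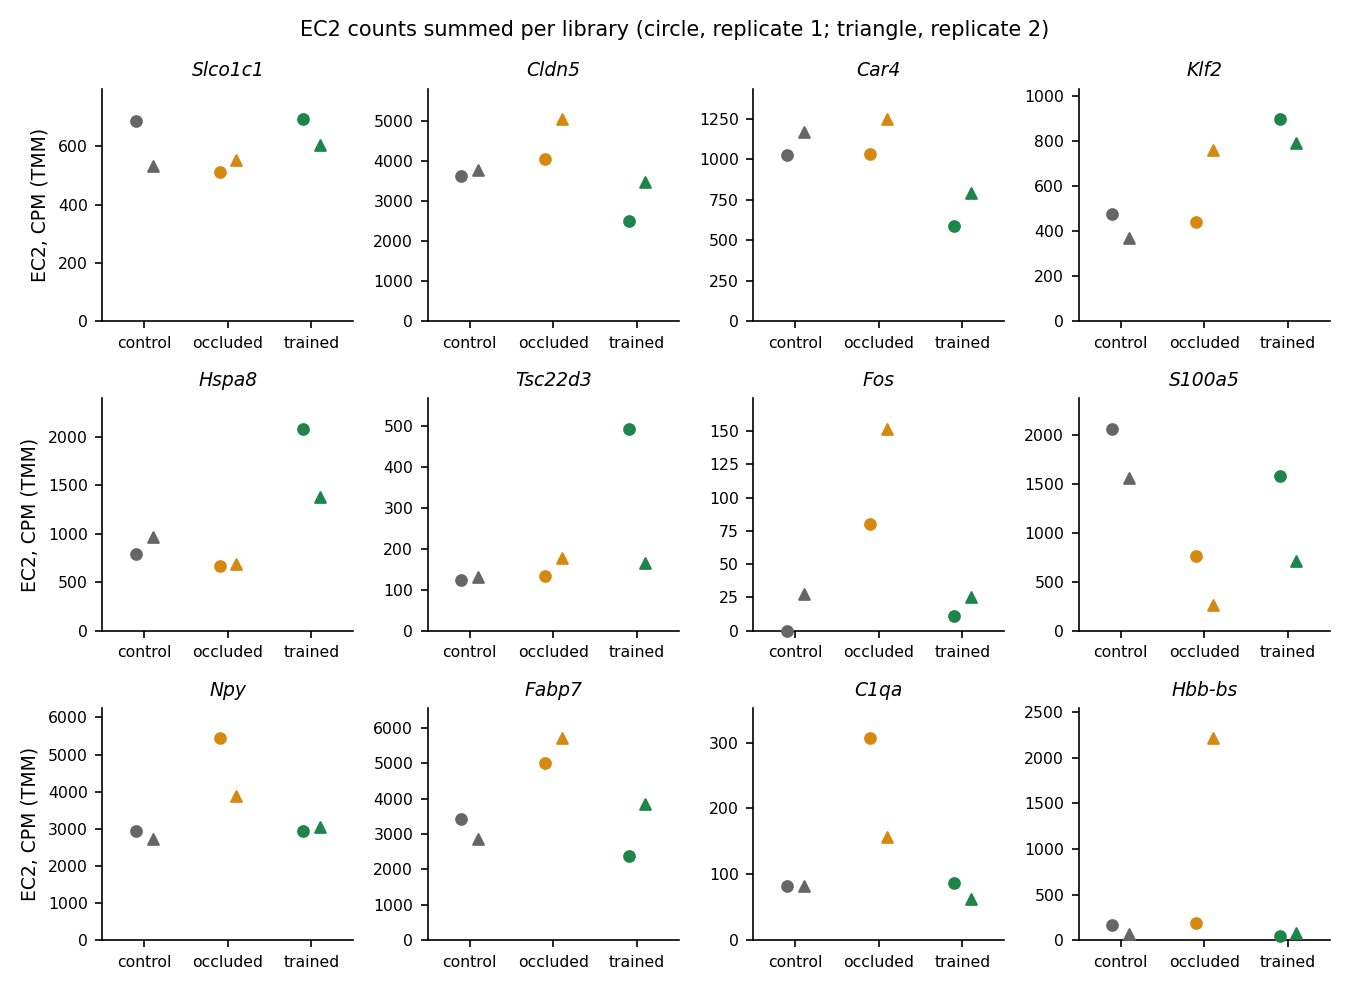
Level in EC2 of 12 genes, Slco1c1, Klf2 and 10 genes called in at least 1 comparison, in normalized CPM on a linear axis from 0. Each point is 1 library, a circle for library 1 and a triangle for library 2 of a condition. S100a5 fell from 2061 and 1555 CPM in control to 767 and 259 in occluded libraries, and Slco1c1 stayed between 513 and 693 CPM in all 6.

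Whether a change between conditions differed between EC2 and EC1 was tested directly over 8007 genes. No gene passed for occluded against control (0.0%) or trained against control (0.0%) by edgeR's quasi-likelihood test, where 364 and 392 genes had an unadjusted p under 0.05, and the lowest adjusted p was 0.0555, for Fos. For trained against occluded 4 genes passed (0.05%), all with a more negative change in EC2, namely Malat1, Timp3, Rbm4b and Hbb-bs. The difference for Malat1 was -0.66 (SE 0.13, edgeR adjusted p = 0.00901), from -0.82 in EC2 and -0.24 in EC1. For Timp3, an inhibitor of matrix proteases, it was -1.24 (SE 0.25, edgeR adjusted p = 0.0168), from -0.25 in EC2 and 0.92 in EC1. With cells of up to 1500 UMIs, 0 genes passed.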

How the data were processed

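Single cells were captured with 10x Chromium 3′ chemistry. The authors used Cell Ranger 2.0.0 and the mm10 build to make the deposited raw counts of UMIs per gene and cell, and Seurat 2.2.1 for clustering after regressing out UMI number and mitochondrial genes. They removed doublets and merged clusters, so no doublet caller was run here. The deposited annotation gives each cell's cluster, library and mitochondrial fraction. The library was taken from the annotation column, because the start of the cell names is reversed between 2 libraries. Cells without a cluster, 1123 of 52549 barcodes, were left out. For 157 EC2 cells the summed counts differ from the annotated UMI number. No column belonged to an unmapped sample.

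For EC2 beside EC1, each cell's counts were scaled to 500 UMIs, which weights cells equally without matching their depth, averaged per library as CPM and compared as log2 ratios with a pseudocount of 1 CPM, without a test. For conditions, counts were summed per library and tested with edgeR 4.0.16 (quasi-likelihood, TMM, filterByExpr, all 6 libraries, Benjamini-Hochberg, threshold 0.05) in R 4.3.3, which was tested on simulated data. The same test was run on EC1, on the interaction with library as block, and on cell numbers. DESeq2 1.42.0 was an alternative. Summed annotated UMIs were 11841160 to 17065083 per library, and intervals cover counting error only.

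The members and gene lists were chosen with earlier results of these data known. Named genes were Slco1c1, the sex-linked genes, the 10 highest and 10 lowest ratios to EC1 with 1 sign in all libraries, the 10 leading and 10 most abundant genes, up to 10 calls per direction and comparison (the 5 lowest p where fewer than 5 passed), up to 5 interaction calls, and the 2 to 4 most abundant or called members of lists. Some list members outside this rule (Slc38a3, Ocln, Gja5, Nr2f2, Foxq1, Ctnnb1, Kdr, Vtn and the markers at 0) were named after their values were seen. A gene that the rule names is not reported here.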

Additional observations from a re-analysis of the deposited data

Results flagged for a closer look

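The change from naris occluded to trained libraries differed between EC2 and EC1 for 4 genes by edgeR's interaction test over 8007 genes. The log2 difference, EC2 minus EC1, was -0.66 for Malat1, -1.24 for Timp3, -2.54 for Rbm4b (edgeR adjusted p = 0.0280) and -3.50 for Hbb-bs (edgeR adjusted p = 0.0310). Rbm4b gave 29 and 33 UMIs in the occluded and 5 and 1 in the trained EC2 libraries, and Hbb-bs rested on 452 UMIs of the second occluded library. None of the 4 passed with cells of up to 1500 UMIs.

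Slco1c1 was also seen in barcodes that the annotation puts in no cluster and that no comparison used. It gave 153 UMIs there, above the 3 counts that a count of 0 allows, in 62 of 1123 barcodes or 5.52%. These barcodes had a median of 2327 UMIs, their Slco1c1 level was 50.7 CPM and their endothelial sum was 859 CPM. In counts summed per library, Astro1 held 52.5 CPM of Slco1c1 and all annotated cells held 1640 CPM of the endothelial list. The 3 counts bound counting error only and are not a background level.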

How the results depend on the processing

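The median log2 ratio over the endothelial list (-0.96) was -1.22 with cells of 500 to 1000 UMIs, and -1.01 to -0.91 with a library left out. Genes lower in EC2 in every library (609) were 282 with cells of 500 to 1000 UMIs, 923 with control libraries only and 645 to 683 with a library left out, and genes higher (264) were 476 with control libraries only and 273 to 310. The Slco1c1 level was 613 CPM without mitochondrial genes and 502 to 533 CPM with a library left out. In Benjamini-Hochberg calls, occluded against control (10) gave 0 with DESeq2, 1 with EC1 and EC2 summed and 7 to 19 with a library left out. Trained against control (2) gave 0 with DESeq2, 4 without a filter, 4 with the robust spread, 25 summed and 0 to 17. Trained against occluded (28) gave 1 with DESeq2, 14 without a filter, 57 summed, 9 with cells of up to 1500 UMIs and 8 to 79. EC1 calls ranged over 0 to 19, 1 to 224 and 5 to 262 with a library left out. Interaction calls without a filter were 6 for occluded against control and 7 for trained against occluded, the latter 0 with cells of up to 1500 UMIs, and leaving out a library gave 0 to 6, 0 to 1 and 0 to 10. The EC2 share of annotated cells, trained against occluded, was 0.084 (log2) with TMM, and with a library left out the 3 comparisons gave -0.62 to -0.10, -0.79 to -0.13 and -0.46 to 0.21. The EC2 share of endothelial cells, trained against occluded, was 4.01 points with cells of up to 1500 UMIs, and with a library left out the differences ran from -4.76 to -2.80, from -10.2 to 0.033 and from -6.39 to 3.81 points. With EC1 and EC2 summed, the 1 call for occluded against control was not among the 10 made in EC2. Of the 28 EC2 calls for trained against occluded 8 were kept in that setting, and both calls for trained against control were kept. With cells of up to 1500 UMIs, Npy turned to -0.090 for occluded against control and 0.54 for trained against occluded, and Fabp7 to 0.32 for the latter. The cause of these changes was not tested, beyond the smaller number of cells or libraries that some settings leave.

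Same-numbered libraries share the sex of the mice. Their deviations from the condition means correlated at 0.162, 0.106 and 0.123 over 1695 genes, and at 0.0451, 0.00524 and 0.0261 without Xist, so the numbers were not taken to pair animals. With the replicate block, calls were 11 for occluded against control, 1 for trained against control and 16 for trained against occluded, and of the calls without it 10 of 10, 1 of 2 and 16 of 28 were kept. Besides Cldn5 and Car4, the named calls lost for trained against occluded were Fos and Tsc22d3 (edgeR adjusted p = 0.0812 and 0.0996), Npy, Apod, mt-Co1 and Trib2.

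Where only 1 library of a condition remained, it was assumed to vary like the others. The settings with cells of up to 1500 UMIs, the robust spread and EC1 with a library left out were chosen after seeing the data. EC2 sums of 91494 to 276414 UMIs per library limit the tests to the more abundant genes.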

Other observations

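The median endothelial sum per cell was 7010 CPM in EC2, with the middle 50% of cells between 4272 and 10836, and 15679 CPM in EC1. In OEC1 it was 3457 CPM, and there the median ensheathing sum was 27596 CPM. Nearly all of the endothelial sum in OEC1 was Cldn5, with a mean over libraries of 3749 CPM out of 3855 for the 15 markers. In the deeper EC2 cells the ensheathing sum had a median of 18946 CPM, between the medians of the shallower EC2 cells, 1548 CPM, and of OEC1.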
